A study of Mus musculus with 4 samples.

Results

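The SOX and POU genes described here are Pou5f1, Pou2f1, Pou3f1, Sox2, Sox4, Sox5, Sox9, Sox11, Sox17 and Sox18. They were chosen by name, and every non-control probe that the array files assign to them was taken, which gave 23 of 41174 probes for 10 genes. RNA of mouse embryonic fibroblasts (MEFs), the connective tissue cells that grow out of a dissociated embryo, was hybridised to 4 one-colour (Cy3) Agilent arrays, 1 for each condition. In the four-factor cells Oct3/4 (gene name Pou5f1), Sox2, Klf4 and c-Myc had been introduced by transduction, a set known for reprogramming fibroblasts towards pluripotency, and growth was for 72 hours at 21% or at 5% O2 (day 4 in the labels). The untransduced fibroblasts had 10 days of growth, likewise at 21% or at 5% O2. The mouse strain, the embryonic age, the vector and the transduced part of each gene are not given in the sources used here. The cultures therefore differ in transduction, time in culture and array slide, since each culture had a slide of its own, and these cannot be told apart. Each oxygen comparison was made within 1 slide.

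SOX proteins bind DNA through a single HMG box, which bends the double helix, and POU proteins bind it through a paired POU-specific domain and POU homeodomain. In pluripotent cells Oct4 (Pou5f1) and Sox2 occupy adjacent sites as a pair and keep each other and other pluripotency genes active. In other tissues the same families direct lineages: Sox9 with Sox5 for cartilage, Sox17 and Sox18 for endothelium and endoderm, Sox4 and Sox11 for neural and mesenchymal progenitors, and Sox2, Sox10 and Pou3f1 for the Schwann cell lineage. Pou2f1 (Oct1) is made in most cell types.

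A level below is the log2 signal of a probe minus the 75th percentile of its array, so 0 is that percentile. Levels of different probes are not compared, because probes differ in how well they bind. The array software marks whether a spot is well above background. All 10 fibroblast markers examined, among them Col1a1, Vim and Dcn, were so marked on every array. The share of all probes well above background was 68.1% (21% O2) and 68.4% (5% O2) for the four-factor arrays and 57.0% and 58.3% for the untransduced arrays, with no saturated spot. The dimmest probe that passed stood at a level of -6.85 and -6.90 on the four-factor arrays but at -4.93 and -5.13 on the untransduced arrays, so a weak signal could pass on the former and not on the latter. Replicate spots of a probe differed by a median standard deviation (SD) of 0.041 to 0.054 log2 units per array. That spread is between spots of one array, and with 1 array per condition a difference between 2 arrays comes without any replicate check and without a p-value.

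Of the 23 probes, 15 were well above background on at least 1 array and 11 on all 4. The four-factor arrays registered 14 (21% O2) and 15 (5% O2) of them, and the untransduced arrays 13 and 12. The 8 probes that passed nowhere were all 4 of Sox17, all 3 of Sox5 and 1 of the 3 of Sox9. The plot of levels by probe shows all 23.

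**Figure D1:**
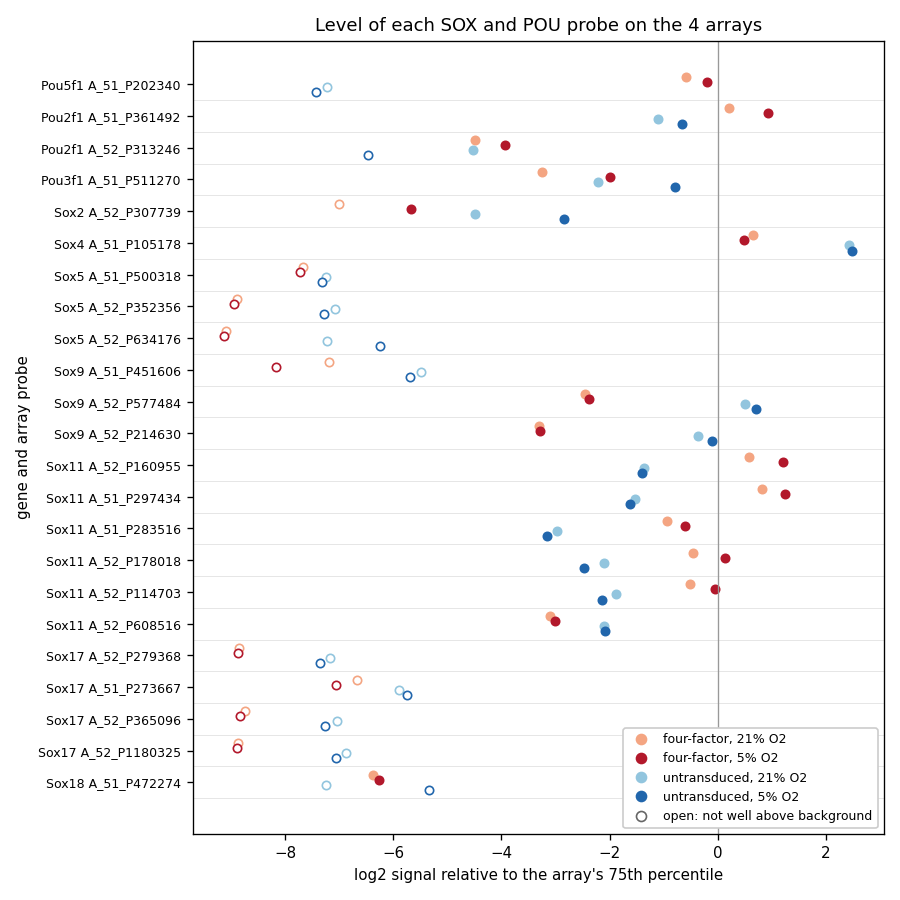
Level of each of the 23 probes (rows) on the 4 arrays, as log2 signal relative to the 75th percentile of the array (horizontal axis); each point is 1 array, and open points were not well above background. Pou5f1 and 5 of the 6 Sox11 probes lie further right in four-factor cells, while Sox2, Sox4 and 2 Sox9 probes lie further right in untransduced fibroblasts.

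RefSeq windows upstream of the annotated start (assembly GRCm38.p6) were found for 6 of the 10 genes, namely Pou5f1, Pou2f1, Sox2, Sox4, Sox5 and Sox11. The windows of Pou5f1, Sox2, Sox4 and Sox11 are printed because most of the results turn on these genes; for Pou5f1 it is the more upstream of 2 listed starts. Each has the 250 bases before the start, 5′ to 3′ on the strand of the gene, with capitals where GGGCGG, the GC box bound by SP factors, or its reverse complement CCGCCC was found.
Pou5f1: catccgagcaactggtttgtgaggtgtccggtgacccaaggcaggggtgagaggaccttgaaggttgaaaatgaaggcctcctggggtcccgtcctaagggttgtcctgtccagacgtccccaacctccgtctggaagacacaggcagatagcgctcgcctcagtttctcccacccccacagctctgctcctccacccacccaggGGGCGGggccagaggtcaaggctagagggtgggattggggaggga
Sox2: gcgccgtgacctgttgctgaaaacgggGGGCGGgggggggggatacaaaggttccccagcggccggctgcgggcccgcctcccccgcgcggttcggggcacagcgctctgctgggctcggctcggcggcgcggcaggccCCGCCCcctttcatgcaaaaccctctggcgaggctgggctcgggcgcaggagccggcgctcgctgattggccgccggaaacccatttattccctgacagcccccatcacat
Sox4: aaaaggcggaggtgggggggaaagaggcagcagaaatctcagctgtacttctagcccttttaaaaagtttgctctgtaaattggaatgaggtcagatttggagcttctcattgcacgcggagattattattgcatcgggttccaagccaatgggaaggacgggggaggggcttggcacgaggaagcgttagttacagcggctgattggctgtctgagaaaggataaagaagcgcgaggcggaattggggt
Sox11: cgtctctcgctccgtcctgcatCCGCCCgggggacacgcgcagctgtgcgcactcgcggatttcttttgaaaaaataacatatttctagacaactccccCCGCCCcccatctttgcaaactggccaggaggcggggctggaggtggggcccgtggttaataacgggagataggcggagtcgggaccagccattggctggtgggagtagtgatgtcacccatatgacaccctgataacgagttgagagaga

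These windows lie at chr17:35505782-35506031 (plus strand) for Pou5f1, chr3:34649745-34649994 (plus) for Sox2, chr13:28953700-28953949 (minus) for Sox4 and chr12:27342719-27342968 (minus) for Sox11. The GC box occurred once, 45 bases before the start, for Pou5f1, and 2 times each for Sox2 and Sox11, while 32.7% of 32851 such mouse windows hold it. The window of Sox2 has 27 CG pairs, more than in 91.4% of windows, that of Sox11 has 17, Sox4 11 and Pou5f1 8, against a median of 6. Neither strand of these 4 windows holds the hypoxia response core ACGTG (found in 16.6% of windows), the octamer ATTTGCAT that POU proteins bind (1.6%) or the SOX core AACAAT (9.42%). The window of the other Pou5f1 start (chr17:35508557-35508806, plus strand) holds 1 SOX core and no GC box. The arrays measure transcripts and not these windows, and a match or its lack describes these letters only.

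Of the transduced genes in this set, Pou5f1 was far higher in four-factor cells and Sox2 was lower. The Pou5f1 probe (A_51_P202340, chromosome 17, 35118388 to 35118448, build mm8 as for all probe positions) had a level of -0.59 at 21% and -0.20 at 5% O2 in four-factor cells, and of -7.22 and -7.42 in the untransduced ones. In intensity units this was 757 and 1000 against 5.44 and 5.07. The untransduced arrays did not register it above background, and the four-factor level exceeded theirs at least 20.4-fold at 21% O2 and 30.5-fold at 5% O2. These bounds take the dimmest passing signal of the untransduced array as the comparison. They hold for the scaling used here: with normexp background correction, which adds an offset of 50 to every signal, the differences were 3.18 and 3.50 (log2), smaller than the bounds.

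The single Sox2 probe (A_52_P307739, chromosome 3, 34843400 to 34843459) had a level of -7.00 at 21% O2, not well above background, and -5.67 at 5% O2 in four-factor cells, and of -4.49 and -2.85 in the untransduced ones. Both four-factor arrays were thus below both untransduced arrays, a separation whose share over all probes was not counted. At 21% O2 the level was at least 5.14-fold lower in four-factor cells, and at 5% O2, where both arrays passed, the difference was -2.82. With normexp the differences were -0.90 and -1.29, in the same direction but smaller. This goes against the direction the transduction label would give for a probe that reads the transduced copy. Whether the probe lies in the transduced part cannot be decided here, and the arrays are called four-factor as labelled. The probes of the other transduced genes were also split: in the additive fit described further on, the culture estimate was 4.25 (SE 0.40) and 3.38 (SE 0.43) on 2 Myc probes, but -1.12 (SE 0.25) on the third and -1.42 (SE 0.21) on the Klf4 probe.

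Targets of the Oct4 and Sox2 pair passed on more arrays in four-factor cells, where weaker signals could pass. Of a list of 7 genes with Oct4 and Sox2 enhancers, 5 were found by name (Utf1, Nanog, Zfp42, Lefty1 and Spp1). In four-factor cells 4 of these passed at 21% O2 and 5 at 5% O2, and in untransduced fibroblasts 2 at either oxygen level. Zfp42 (Rex1), a zinc finger gene of pluripotent cells, had levels of -5.54 and -4.33 in four-factor cells, 1.20 higher at 5% O2, and was dim in untransduced fibroblasts. Nanog, the homeodomain factor of the network, passed only in four-factor cells at 5% O2, at -5.57, at least 2.43-fold above 21% O2. Lefty1, a Nodal antagonist, was lower in four-factor than in untransduced cells, with differences of -1.69 at 21% and -2.07 at 5% O2. Spp1 (osteopontin), which fibroblasts and macrophages also make, stood at 6.36 and 5.53 in four-factor cells and 5.55 and 3.34 in untransduced fibroblasts. It was 2.19 higher in four-factor cells at 5% O2 and differed by -2.21 between 5% and 21% O2 in untransduced fibroblasts, lower at 5%. Of 11 pluripotency markers found by name, which include Nanog, Zfp42 and Utf1 again, 5 and 7 passed in four-factor cells and 2 and 1 in untransduced fibroblasts, and Esrrb, Dppa3, Dppa4 and Lin28a passed on no array. Their summed level, in multiples of the 75th percentile, was 0.397 and 0.508 in four-factor cells and 1.16 and 1.38 in untransduced fibroblasts, and mostly came from Dppa5a, which was lower in four-factor cells, by -1.78 (21% O2) and -2.25 (5% O2). Other markers went the other way. Tdgf1 (Cripto), a Nodal co-receptor, passed on the four-factor array at 5% O2 alone, at least 6.64-fold above 21% O2 and at least 2.02-fold above the untransduced cells. Utf1 was at least 1.23-fold and 1.49-fold higher in four-factor cells. Gdf3, a TGF-beta family ligand, was 1.55 higher at 5% O2 in four-factor cells, and between cultures it differed by -3.22 at 21% O2 but was at least 1.23-fold higher in four-factor cells at 5% O2. The four-factor intensity of Gdf3 at 21% O2 was 13.6, near the lowest passing 9.86.

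Between cultures, 12 member probes passed on both arrays at each oxygen level, and most were at least 2-fold apart. At 21% O2 6 were past 2-fold on the higher side and 5 on the lower side in four-factor cells, while over 22949 probes 11.3% were higher and 15.8% lower (27.1% in either direction). At 5% O2 the counts were again 6 and 5, against 16.8% and 18.9% of 23314 probes (35.7% in all). The 12 probes include 6 of Sox11 and 2 of Sox9, which read the same genes and are not independent. All of these were counted at 21% O2, while at 5% O2 1 Sox11 probe (-0.92) fell short of 2-fold and Sox2 was counted. The median difference over the 12 was 0.68 at 21% and 0.33 at 5% O2, against -0.02 and -0.01 over all probes that passed.

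The 4 arrays together allow a limma fit in which a culture term and an oxygen term add up, run here over 27849 probes well above background on at least 2 arrays. With 1 residual degree of freedom, the only error it sees is how far the oxygen difference in one culture departs from that in the other, moderated across probes. For the culture term 13 of the 15 member probes fitted passed at an adjusted p of 0.05 (limma, Benjamini-Hochberg over all probes), 7 higher and 6 lower in four-factor cells. Over all probes 49.7% passed (27.6% higher and 22.1% lower) and 58.8% had an unadjusted p under 0.05, and the term also holds time in culture and slide. The member probes that did not pass were the dimmer Pou2f1 probe (1.29, SE 0.65, limma adjusted p 0.169) and that of Sox18 (-0.03, SE 0.48, adjusted p 0.961). Pou5f1, counted among the 13, had the estimate furthest from 0 among members, 6.93 (SE 0.22), although its untransduced signals were near background. It entered the fit through the four-factor arrays alone, where it was high, so its passing is not read as a test. With normexp the estimate was 3.34 (SE 0.17).

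Sox11, a SOXC factor of neural and mesenchymal progenitors, was higher in four-factor cells on 5 of its 6 probes and lower on the remaining one. The 6 probes lie on the minus strand of chromosome 12, and their distances are counted from the most 5′ probe (A_52_P608516, 27928353 to 27928412). At distances of 1364, 1567, 4093, 6887 and 7409 bases the probes were 1.38 to 2.34 higher in four-factor cells at 21% O2 (2.60-fold to 5.05-fold), and 2.10 to 2.87 higher at 5% O2 (4.28-fold to 7.34-fold). On these 5 probes, which read 1 gene, both four-factor levels were above both untransduced levels. The probe at 6887 bases, for instance, had levels of 0.81 and 1.25 in four-factor cells and -1.53 and -1.62 in untransduced fibroblasts. The share of all probes separated in this way was not counted, and 49.7% of all fitted probes passed the culture term. At the most 5′ probe the order was turned, with -3.11 and -3.01 in four-factor cells and -2.11 and -2.09 in untransduced fibroblasts, 2.01-fold lower in four-factor cells at 21% and 1.89-fold lower at 5% O2. Its culture estimate was -0.96 (SE 0.16, limma adjusted p 0.0158), while those of the other 5 ran from 1.74 (SE 0.24) to 2.61 (SE 0.21), with adjusted p from 0.00456 to 0.0109 (limma). Under spike-in scaling the estimate of the most 5′ probe was -0.45 (adjusted p 0.158, limma). The probes at 1364, 6887 and 7409 bases are listed under other transcript records than the RefSeq record of the gene.

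**Figure D2:**
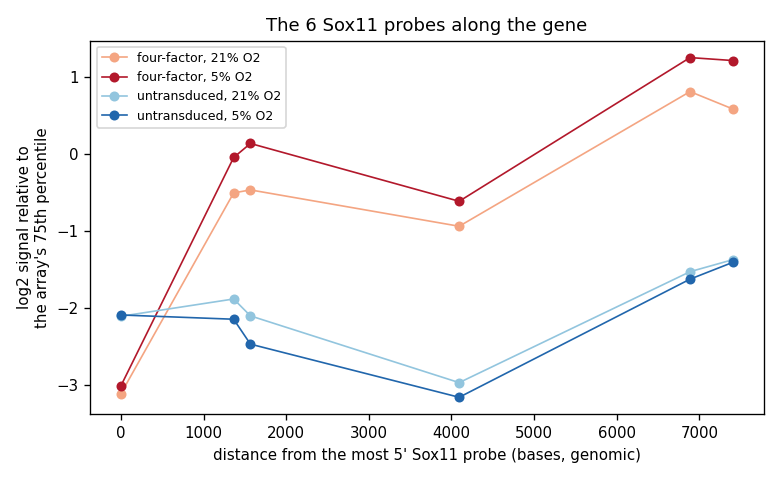
Levels of the 6 Sox11 probes on the 4 arrays (vertical axis, log2 signal relative to the 75th percentile of the array) against genomic distance from the most 5′ probe in bases; lines join the probes of 1 array. The colours should be compared at each position, since probes differ in binding: four-factor arrays are lower at 0 bases and higher at the other 5 positions.

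Sox4, the other SOXC gene here and a factor of progenitor survival, went the other way. Its probe (A_51_P105178, chromosome 13, 28959662 to 28959721) had levels of 0.66 and 0.48 in four-factor cells and 2.42 and 2.49 in untransduced fibroblasts. The differences were -1.77 at 21% and -2.01 at 5% O2, with a culture estimate of -1.89 (SE 0.17, limma adjusted p 0.00548).

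Sox9, which directs cartilage formation, was also lower in four-factor cells. One of its probes is spotted 10 times per array (A_52_P214630, chromosome 11, 112603585 to 112603644). On this probe the level was -3.31 ± 0.05 (SD over 10 spots) at 21% and -3.28 ± 0.08 (10 spots) at 5% O2 in four-factor cells, and -0.36 ± 0.01 (7 spots kept) and -0.10 ± 0.04 (9 spots kept) in the untransduced ones. The cultures differed by -2.95 at 21% and -3.19 at 5% O2. The SD of the spots covers the measurement on 1 array and not the spread between cultures. The second probe (A_52_P577484, 112601784 to 112601843) gave -2.45 and -2.39 against 0.51 and 0.71, differences of -2.96 and -3.10. The culture estimates were -3.07 (SE 0.17, limma adjusted p 0.00319) and -3.03 (SE 0.17, adjusted p 0.0031). The third probe (A_51_P451606), whose 60-mer is placed across 853 bases of genome and so over a splice junction, was not well above background on any array.

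Of 11 cartilage genes that Sox9, Sox5 and Sox6 act on, 10 were found by name. Their summed level was 4.89 and 4.24 in four-factor cells and 11.0 and 14.3 in untransduced fibroblasts. The sum mostly came from Col2a1 (levels 2.12 and 1.91 against 2.66 and 2.73) and, in untransduced fibroblasts, also from Comp (2.01 and 2.79). At 21% O2, 2 of 5 genes that passed on both arrays were at least 2-fold lower in four-factor cells and none higher, and at 5% O2 4 of 6 were lower and 1 higher. Over all probes 15.8% were lower and 11.3% higher at 21% O2, and 18.9% and 16.8% at 5% O2. Comp, a cartilage and tendon matrix protein, differed by -5.11 and -5.67 at 21% and 5% O2, and Col9a2, a chain of collagen IX, by -2.15 and -2.20. Col9a1 was dim in four-factor cells and at least 9.55-fold and 8.69-fold lower there. Col11a2 (-1.06) was lower in four-factor cells at 5% O2. Col9a3 differed by 0.69 at 21% O2 and by -1.41 at 5% O2, and with oxygen by -1.08 in the transduced and 1.01 in the untransduced cells. Hapln1, which links aggrecan to hyaluronan, was higher in four-factor cells, at least 2.86-fold at 21% O2 and by 1.52 at 5% O2. Col2a1, the main collagen of cartilage, differed by -0.55 and -0.81, less than 2-fold. Matn1 and Matn3 passed on no array. Of the 10 fibroblast markers, 7 were likewise at least 2-fold lower in four-factor cells at each oxygen level and none higher, with a median of -1.73 at 21% and -1.76 at 5% O2, among them Dcn, Lum and Pdgfra. Their summed level was 549 and 502 in four-factor cells against 1057 and 1095, and the part of such a shift in the values of Sox4 and Sox9 was not tested.

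Pou2f1, the broadly made Oct1, was higher in four-factor cells on its brighter probe (A_51_P361492, chromosome 1, 167712183 to 167712242). The levels there were 0.21 and 0.92 in four-factor cells and -1.11 and -0.65 in untransduced fibroblasts, differences of 1.32 at 21% and 1.58 at 5% O2 (estimate 1.45, SE 0.17, limma adjusted p 0.00837). The dimmer probe (A_52_P313246, 167731662 to 167731721) did not show this at 21% O2, with -4.48 in four-factor and -4.52 in untransduced cells. It passed in four-factor cells at 5% O2 (-3.93) but not in untransduced fibroblasts at 5% O2 (-6.46), and its bound there was at least 2.30-fold (0.64 on the log2 scale with normexp). The probes thus disagree in size at 21% O2.

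Pou3f1 (Oct6), a POU factor of the Schwann cell lineage and of epidermis, and Sox2 were the only members at least 2-fold apart with oxygen on arrays that both passed, and both were higher at 5% O2. The Pou3f1 probe (A_51_P511270, chromosome 4, 124161398 to 124161457) had levels of -3.25 at 21% and -1.98 at 5% O2 in four-factor cells, a difference of 1.26. In untransduced fibroblasts it had -2.21 and -0.80, a difference of 1.41. With intensities of 120 and 290 in four-factor cells and 175 and 501 in untransduced fibroblasts, it also read lower in the four-factor arrays, with -1.04 at 21% O2 and -1.19 at 5% O2. Sox2 was higher at 5% O2 by 1.63 in untransduced fibroblasts and by at least 2.26-fold in four-factor cells, where it was dim at 21% O2. With normexp the differences were 0.96 for Pou3f1 in four-factor cells and 0.74 for Sox2 in untransduced fibroblasts, both under 2-fold, and 0.35 for Sox2 in four-factor cells.

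In four-factor cells 1 of 14 member probes that passed on both arrays was at least 2-fold higher at 5% O2 (Pou3f1) and none lower, against 1.11% and 0.966% of 27333 probes (2.07% in all). In untransduced fibroblasts 2 of 12 were higher (Pou3f1 and Sox2) and none lower, against 2.12% and 1.56% of 22888 probes (3.68% in all). The oxygen term of the limma model passed for no probe of 27849 (0.0%), with a smallest adjusted p of 0.528, while 7.39% of probes had an unadjusted p under 0.05. At that unadjusted level stood 3 member probes, Sox2 (estimate 1.48, SE 0.18, limma adjusted p 0.615), Pou3f1 (1.34, SE 0.17, adjusted p 0.615) and the brighter Pou2f1 probe (0.59, SE 0.17, adjusted p 0.634), all higher at 5% O2. Sox2 and Pou3f1 were higher at 5% O2 in both cultures, and the cultures share no array. The Sox2 estimate rests partly on a signal near background.

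**Figure D3:**
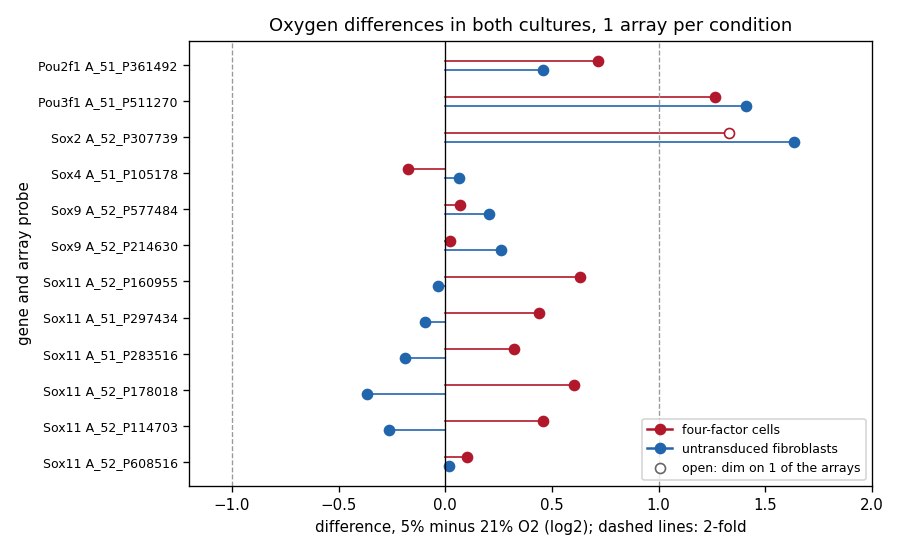
Difference between 5% and 21% O2 (horizontal axis, log2) for the 11 probes well above background on all arrays and for Sox2, in four-factor cells (red) and untransduced fibroblasts (blue); each point is 1 array minus 1 array, open where an array was dim, and dashed lines mark 2-fold. Pou3f1 and Sox2 pass the line on the right in both cultures, and the other points lie inside both lines.

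Other members differed less with oxygen. The brighter Pou2f1 probe was higher at 5% O2 by 0.72 in the transduced and by 0.46 in the untransduced cells. The dimmer one was 0.55 higher in four-factor cells but at least 1.52-fold lower in untransduced fibroblasts, so the probes disagree in direction there. With normexp that lower value was -0.52 (log2), smaller than the bound. The 5 concordant Sox11 probes were higher by 0.32 to 0.63 in four-factor cells and differed by -0.03 to -0.37, lower at 5% O2, in untransduced fibroblasts. The most 5′ Sox11 probe differed by 0.10 and 0.02. The 10-spot Sox9 probe differed by 0.02 in four-factor cells and by 0.26 in untransduced fibroblasts. Sox4 differed by -0.18 and 0.06. Pou5f1 was 0.39 higher at 5% O2 in four-factor cells and dim in untransduced fibroblasts at both oxygen levels.

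Sox2 and Pou3f1 moved beside markers of Schwann and other glial cells in untransduced fibroblasts, where Sox10, the SOX factor that defines that lineage, was itself higher at 5% O2. Of 9 glial markers, 7 passed on both untransduced arrays, all 7 with a higher value at 5% O2 and 6 of them past 2-fold, with a median of 1.21 against -0.05 over all probes. Over all probes 2.12% were at least 2-fold higher at 5% O2 there. Sox10 had levels of -1.31 at 21% and 0.54 at 5% O2 there, a difference of 1.85. The receptor Erbb3 was higher by 1.72, the neural crest factor Foxd3 by 1.69 and S100b by 1.21. The summed level of the list went from 4.94 to 11.0. Gfap and Cdh19 passed on no array. In four-factor cells, 4 of 7 glial markers had a higher and 3 a lower value at 5% O2, with a median of 0.21 and only Mbp (1.02) past 2-fold. There Sox10 differed by -0.55, lower at 5% O2, while Pou3f1 was higher, and the summed level went from 4.21 to 6.09. Against untransduced fibroblasts the four-factor level of Sox10 differed by -2.83 at 21% and -5.22 at 5% O2. The median of the 7 glial markers was -0.87 and -1.80. At each oxygen level 5 were lower and 2 higher in four-factor cells, the higher ones being Mbp and Fabp7. All 7 macrophage markers examined, among them Csf1r and Mrc1, were at least 2-fold higher at 5% O2 in untransduced fibroblasts as well, and their summed level went from 1.34 to 4.19. In RNA of a whole culture, more cells of a type and more RNA per cell cannot be told apart, and the part of glial or macrophage RNA in the values of Sox2 and Pou3f1 was not tested.

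**Figure D4:**
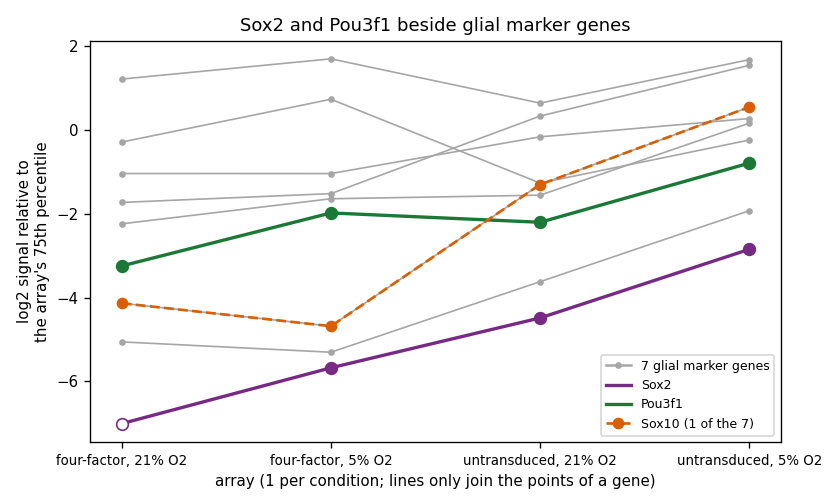
Levels of Sox2, Pou3f1 and the 7 glial markers well above background on all arrays (vertical axis, log2 signal relative to the 75th percentile) on the 4 arrays; lines only join the points of a gene, and the open point was not well above background. From 21% to 5% O2 in untransduced fibroblasts all 9 lines go up. In four-factor cells Sox2, Pou3f1 and 4 of the 7 glial markers go up, while 3 of them, including Sox10, have a lower value.

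Sox17, of endoderm and endothelium, and Sox5, a partner of Sox9, gave no signal well above background. The levels of the 4 Sox17 probes ran from -8.88 to -5.74 and those of the 3 Sox5 probes from -9.13 to -6.24 over the arrays. On all 7 the untransduced arrays read higher than the four-factor arrays, as did their lowest passing levels, so no direction was taken from them. Sox18, of endothelium and lymphatics, passed in four-factor cells (-6.37 and -6.27) and not in untransduced fibroblasts (-7.24 and -5.34). The value at 5% O2 in untransduced fibroblasts was the highest of the 4, and no bound above 1-fold could be given. Of 11 endothelial markers 8 and 9 passed in four-factor cells and 5 and 5 in untransduced fibroblasts, with summed levels of 2.45, 2.82, 3.01 and 2.90, while the defining genes Pecam1 and Tie1 passed on no array. Those that passed on both sides and were at least 2-fold apart between cultures went both ways: Tek was higher in four-factor cells by 2.61 and 1.27, while Kdr differed by -1.29 and -1.44 and Erg by -4.19 and -4.06. With oxygen, Cldn5 was 2.68 higher at 5% O2 in four-factor cells, where its intensity at 21% O2 was 14.9, near the lowest passing 9.86. In untransduced fibroblasts Tek differed by 1.72 and Emcn by -1.79. Of 6 endoderm markers 4 and 4 passed in four-factor cells and 1 and 2 in untransduced fibroblasts. Their summed levels were 0.383 and 0.295 in four-factor cells and 1.91 and 2.5 in untransduced fibroblasts. The counts thus ran opposite to the sums, and weaker signals could pass on the four-factor arrays. Gata6, of endoderm and mesoderm, was the single one well above background on all arrays, and it differed by -2.50 and -3.20, lower in four-factor cells. Afp differed by -1.35 with oxygen in four-factor cells, lower at 5% O2, where its intensity was 11.1, near the lowest passing 9.64. Ttr passed on none.

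Of 40 probes for 24 other genes of both families, 20 passed on no array and 8 on all 4, and 14 of the genes had a probe that passed somewhere. With oxygen, 0 of 17 probes in four-factor cells and 1 of 9 in untransduced fibroblasts (Sox10) were at least 2-fold apart. Over all probes that passed on both arrays the shares were 2.07% and 3.68%. Between cultures 2 of 8 probes were higher and 1 lower in four-factor cells at 21% O2, and 3 of 9 higher and 1 lower at 5% O2. Over all probes 11.3% were higher and 15.8% lower at 21% O2, and 16.8% and 18.9% at 5% O2. The 3 higher at 5% O2 were a Sox13 probe and probes of 1 gene, Sox6. Sox13, a SOXD gene, had the largest difference of any SOX or POU probe that passed on both arrays, with levels of 0.47 and 0.85 in four-factor cells and -4.48 and -3.50 in untransduced fibroblasts, except for Sox10 at 5% O2. These were 4.95 and 4.35 higher. Sox6, another SOXD gene and partner of Sox9, was higher by 1.36 at 21% and 1.12 at 5% O2 on its brightest probe. Sox21, Sox8 and Pou3f3 were measured on 1 side only and were picked out after their values were seen. A Sox21 probe was at least 13.9-fold and 21.5-fold higher in four-factor cells, and a second at least 1.76-fold and 3.16-fold. The third Sox21 probe, well above background on all arrays, differed by 0.30 and 0.22. Sox8 was at least 2.28-fold and 2.25-fold higher at 5% O2 in four-factor cells on its probes. A Pou3f3 (Brn1) probe was at least 6.16-fold and 4.96-fold lower in four-factor cells, with untransduced intensities of 43.3 and 36.3. The other Pou3f3 probe passed on no array.

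For the 3 member probes with the widest range on all arrays, the genes with the most similar profile were found by distance between centred log2 levels over the 4 arrays, among 17059 probes. The 10-spot Sox9 probe was closest to Pcp4 (0.07), Prickle1 (0.10) and Agbl2 (0.13), and the other Sox9 probe to Pcp4 (0.08), Wnt5b (0.12) and Prickle1 (0.13). The Sox11 probe at 6887 bases was closest to Lyar (0.06), Gabrb2 (0.09) and Pelp1 (0.10). With 4 points per profile, such closeness describes these arrays only.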

How the data were processed

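RNA extraction used Trizol and labelling Agilent's Quick Amp method (5.7), per the labels' protocols. Arrays of design 014868, whose probe positions are on mm8, were read by the authors with Feature Extraction 9.5.3.1, per the file headers. Their parameters show that the deposited intensity used here has the background and its spatial trend removed, with no step across arrays. The deposited value table holds log2 values without stated software. Set against log2 of the processed signal minus its 75th percentile it differed by at most 0.01 for 99.8% to 99.9% of probes, so its scale is that and it is not centred per probe, with column medians of -3.86, -3.87, -3.71 and -3.69.

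Here outlier-marked spots were dropped, log2 spots of a probe averaged and the 75th percentile over probes subtracted. A probe passed when the majority of its spots were well above background. Only probes that passed on both arrays were counted at 2-fold. Where 1 array passed, the fold is a lower bound against the higher of the dim signal and the lowest passing signal of that array. All such bounds hold for this scaling only, and with normexp a difference can be smaller than its bound. Gene lists use the brightest probe per gene by mean level. The fit used limma 3.58.1 (R 4.3.3; lmFit, eBayes) and was tested on simulated data. Alternatives were normexp (offset 50), quantile normalization, another percentile, scaling on 8 spike-in probes, no filter on dim probes and the deposited table.

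Members, lists and the rule for named genes (all member probes, genes of the family and target lists at least 2-fold apart, and 3 similar profiles each for 3 probes) were chosen with earlier results of these data known. Genes of the marker lists were named outside that rule, after their values were seen. Fgf4, Fbxo15, Acan and Pou5f2 were not found by name and are not analysed here. Some genes of the marker lists are not reported here.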

Additional observations from a re-analysis of the deposited data

Results flagged for a closer look

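For 6 probes well above background on all arrays the oxygen difference had opposite signs in the 2 cultures, each from 1 array per condition, and the difference between the cultures was not tested. They were 5 probes of Sox11, with 0.63 in four-factor cells against -0.03 in untransduced fibroblasts, 0.44 against -0.10, 0.32 against -0.19, 0.60 against -0.37 and 0.46 against -0.26. These read 1 gene and are not independent. For the first of them the value in untransduced fibroblasts was within the SD of replicate spots (0.041 to 0.054). The sixth was Sox4, with -0.18 against 0.06. With spike-in scaling both Sox4 differences were below 0 (-0.026 and -0.0045). With the other percentile the first Sox11 probe was above 0 in untransduced fibroblasts as well (0.0047).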

How the results depend on the processing

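The 25 member differences counted as at least 2-fold kept their direction under every normalization and background alternative. They stayed past 2-fold in 25 cases with the other percentile and the deposited table, 23 with quantile normalization, 22 with spike-in scaling and 21 with normexp. In four-factor cells the oxygen count of 1 became 0 with normexp (Pou3f1 at 0.96) and 2 with no filter on dim probes. In untransduced fibroblasts the oxygen count of 2 became 1 with normexp (Sox2 at 0.74) and 4 with no filter. Between cultures the counts of 11 and 11 became 19 and 20 with no filter, by the construction of that alternative. The limma oxygen term passed for 1 member probe with normexp (Pou3f1, 1.06, SE 0.17, limma adjusted p 0.000106). It passed for 2 with spike-in scaling (Sox2, 1.52, SE 0.28, limma adjusted p 0.000966, and Pou3f1, 1.38, SE 0.28, adjusted p 0.00271). With the main scaling, where neither passed, the estimates were 1.34 (SE 0.17) for Pou3f1 and 1.48 (SE 0.18) for Sox2. The smaller adjusted p thus came without a smaller SE. It still rests on 1 residual degree of freedom moderated across probes, and adds no replicate. Over all probes the oxygen count of 0 became 708 and 594, and the cause was not tested. The culture count of 13 member probes was 12 with spike-in scaling, which lost Pou3f1 (-0.60, adjusted p 0.0569) and the most 5′ Sox11 probe and gained the dimmer Pou2f1 probe, and 13 otherwise. Spike-in scaling moved the median of all probes to 0.38 and 0.61 between cultures and to 0.14 and -0.12 with oxygen. Slide as a block was not run, because slide and culture coincide and the culture term already holds it. No paired analysis was possible because each condition has 1 array. Signals near background limit Pou5f1 (in untransduced fibroblasts), Sox2, Sox5, Sox17, Sox18 and the dimmer Pou2f1 probe. They also limit marker genes such as Nanog, Tdgf1, Gdf3, Cldn5 and Afp.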
